A study of Mus musculus with 6 samples.

Results

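The 42 genes described here encode the machinery that copies DNA and the factors that bring a cell into S phase. They were chosen by gene symbol, for their known function but with earlier results of these data known, and all 42 were found among the 16018 genes of the normalized count table. RNA was taken from the hearts of female mice aged 4 to 5 weeks, 3 of genotype NBCe1-B/C KO (KOb/c) and 3 of genotype WT, and each mouse gave 1 library. KOb/c mice lack the B and C variants of NBCe1, the electrogenic sodium-bicarbonate cotransporter encoded by *Slc4a4*, in every tissue from conception and keep the A variant of the kidney. Per the study's methods, both groups came from crosses of heterozygous mice on a C57BL/6J background, and KOb/c mice die early, so that the mice sampled are ones that lived to this age. The comparison asks how the transcripts of hearts without NBCe1-B/C differ from those of WT hearts.

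DNA replication starts at origins that are licensed in G1, when the origin recognition complex, Cdc6 and Cdt1 load the Mcm helicase onto DNA. Cdc45 and the GINS complex then switch the helicase on, and polymerases, primase, a sliding clamp and the lagging-strand enzymes copy both strands while nucleotide synthesis and histone deposition keep pace. Most of these genes are transcribed at the G1/S boundary under the control of E2F factors. In the mouse heart, cardiomyocytes largely leave the cell cycle in the first weeks after birth, and non-muscle cells go on dividing at a low rate.

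An E2F-type element stood in promoter windows of 16 of the 42 genes, and in a larger share of their windows than of those of genes in the table. The choice did not use sequence. Most such genes are known to be under E2F control, so an excess of these letters was likely from the choice by function. RefSeq promoter windows (GRCm38.p6, 250 bases before to 50 after a transcription start) were found for 36 of the 42 genes, with 42 windows in all. *Pole*, *Gins2*, *Mcm4*, *Prim2*, *Ccne2* and *Gins1* had no entry. The E2F-type element TTTNNCGC, searched on both strands, was present in 40.5% of these windows, against 7.65% of the 14767 windows of genes in the table. It was present in 5.0% of 20 windows of mitosis genes. The stretches shown are the 200 bases before a RefSeq start of 4 genes in which the element lies upstream of that start, outside annotated exons. The stretch of *Uhrf1* lies before a start inside the gene, which is annotated from 56303321 to 56323486. Capitals mark the element in either orientation, and in *Mcm5* and *Mcm6* 2 matches overlap in 1 run of capitals.
Mcm5 (chr8:75109309-75109508, forward strand): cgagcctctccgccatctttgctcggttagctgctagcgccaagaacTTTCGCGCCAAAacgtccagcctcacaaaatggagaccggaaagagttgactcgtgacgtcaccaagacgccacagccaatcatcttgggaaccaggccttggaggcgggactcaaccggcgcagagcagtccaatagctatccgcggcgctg
Mcm6 (chr1:128359706-128359905, reverse strand): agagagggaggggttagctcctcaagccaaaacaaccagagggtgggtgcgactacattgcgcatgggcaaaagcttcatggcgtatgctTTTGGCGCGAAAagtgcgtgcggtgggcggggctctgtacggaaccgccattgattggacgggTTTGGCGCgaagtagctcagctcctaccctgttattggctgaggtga
Uhrf1 (chr17:56304113-56304312, forward strand): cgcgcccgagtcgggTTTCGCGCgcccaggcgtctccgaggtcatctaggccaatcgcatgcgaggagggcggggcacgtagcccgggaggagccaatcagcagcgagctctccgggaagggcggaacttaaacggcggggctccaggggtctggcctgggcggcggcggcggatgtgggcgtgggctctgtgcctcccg
Pola1 (chrX:93632156-93632355, reverse strand): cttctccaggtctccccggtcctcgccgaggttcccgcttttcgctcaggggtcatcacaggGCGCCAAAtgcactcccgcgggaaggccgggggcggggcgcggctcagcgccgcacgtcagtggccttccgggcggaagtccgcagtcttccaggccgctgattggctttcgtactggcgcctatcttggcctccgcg

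The same letters stood before genes whose KOb/c and WT levels differed by unlike amounts. The log2 fold change, given throughout as KOb/c minus WT on log2(normalized count + 1), was -0.62 for *Mcm5*, -0.33 for *Mcm6*, -0.48 for *Uhrf1* and -0.03 for *Pola1*. Over the 16 genes with the element its median was -0.42, and over the 20 genes with a window and no match it was -0.32. Of the 24 matches, 12 began upstream of the start. Other spellings and motifs were searched too. TTTGGCGC was in 16.7% of the windows against 0.88% of those of genes in the table, TTTCGCGC in 19.0% against 0.555%, TTTCCCGC in 11.9% against 1.81%, and TTTNGCGC in 31.0% against 2.19%. TTCCCGC was in 35.7% against 7.82%, TTGGCGC in 21.4% against 3.95%, and TTTGCCGC in 0.0% against 0.515%. In windows of mitosis genes TTGGCGC was in 25.0%, above the 21.4% here, and TTTCGCGC and TTTNGCGC were in 5.0% each. TTTGGCGC, TTTCCCGC, TTCCCGC and TTTGCCGC were in 0.0% of the windows of mitosis genes. These spellings overlap one another. The letters TTTGAA, found in many promoters of mitosis genes, were in 9.52% of the windows, in 75.0% of those of mitosis genes and in 12.2% of those of genes in the table. CCAAT was in 57.1%, 85.0% and 37.2% of them in the same order. A match is a description of letters and not a measured binding site.

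Between 41364857 and 49100802 reads fell on genes in each library. The values are normalized read counts, and libraries are given in the order of replicates 1, 2 and 3. The targeted gene *Slc4a4* was counted at 264, 945 and 269 in the KOb/c libraries and at 675, 822 and 789 in the WT libraries. The library labelled KOb/c replicate 2 was therefore above each WT library, and each direction given here includes it as labelled. In RNA of a whole heart, fewer dividing cells and less RNA per cell cannot be told apart.

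The 42 genes were lower in KOb/c hearts on average, WT replicate 1 stood above the other hearts in nearly all of them, and no gene passed limma's test. The log2 fold change was negative for 40 of 42 genes, where 50.8% of all 16016 genes tested were negative. Its median was -0.34, against -0.004 over all genes tested. With limma and Benjamini-Hochberg adjustment over all genes, 0 of 42 had an adjusted p under 0.05, as did 0.0% of all genes tested. At an unadjusted p under 0.05, 13 of 42 were lower and 0 were higher in KOb/c, where 10.5% of all genes were lower. In 13 of 42 all 3 KOb/c values lay below all 3 WT values, against 14.6% of all genes. An exact permutation test of 3 mice against 3 cannot give a p below 0.1.

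**Figure D1:**
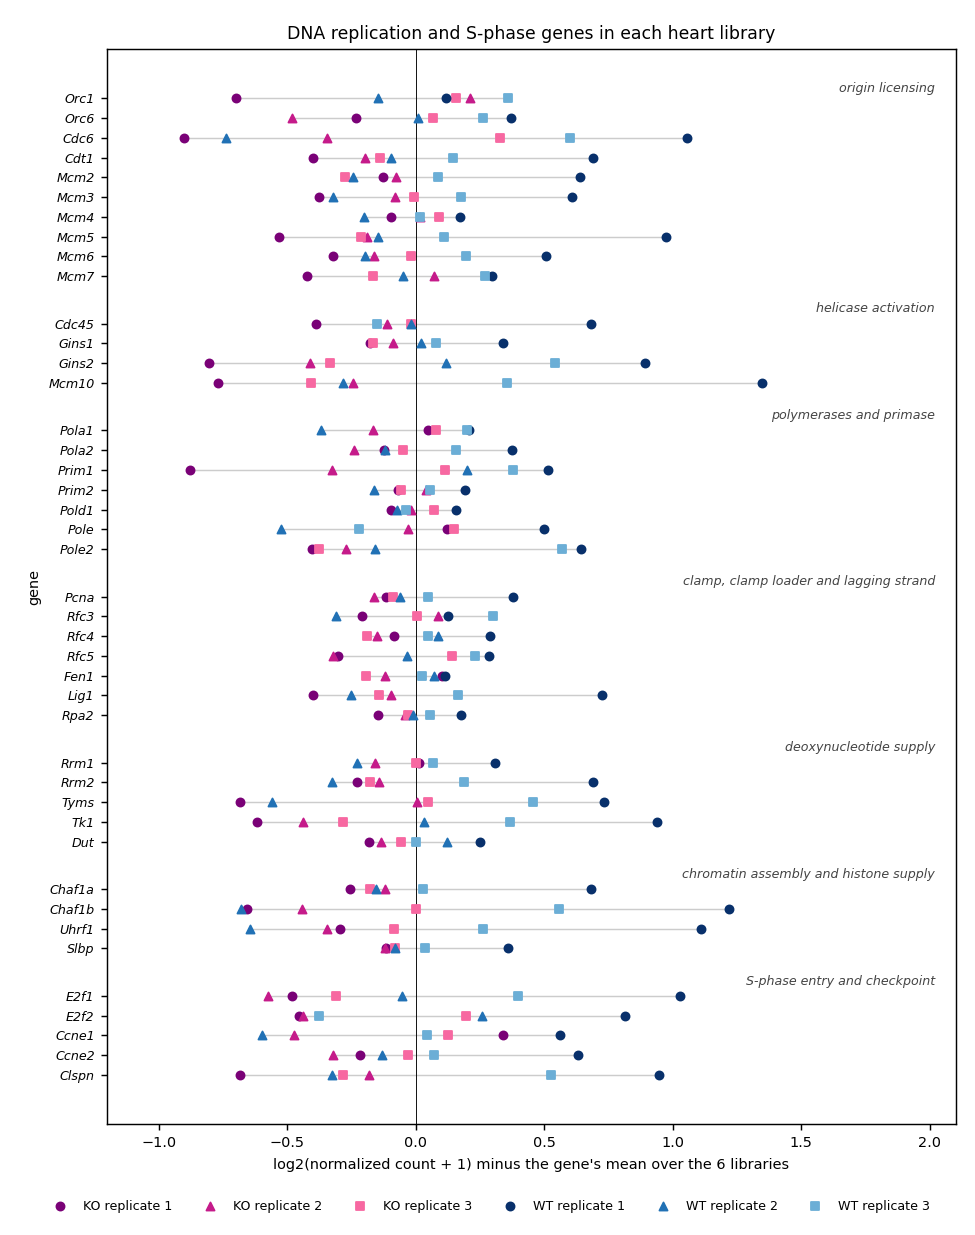
Each row is a gene and each point a library, plotted as log2(normalized count + 1) minus the gene's mean over the 6 libraries, with KOb/c in purple to pink, WT in blue, and shapes for replicates 1 to 3. WT replicate 1 is the rightmost point for 40 of 42 genes, and WT replicate 2 lies among the KOb/c points for many.

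The reads recovered from the table allowed a count test as an alternative. DESeq2 called *Tk1*, *Mcm5* and *E2f1* lower in KOb/c after Benjamini-Hochberg adjustment, 3 of the 33 members to which it gave an adjusted p. It called 5.03% lower of the 11979 genes of the table to which it gave one. The adjusted p of the other 9 genes was set aside by its filter on low counts. Without that filter, DESeq2 called 4 of 42, *Gins2* being added, against 3.42% of all genes. With single libraries left out as well, a setting chosen after seeing the data, it called 0 of 42 without WT replicate 1, against 0.545% of all genes. It called 1, *Tk1*, without KOb/c replicate 1 and also without WT replicate 3, against 1.33% and 2.72%, and 3, 5 and 14 without KOb/c replicate 2, KOb/c replicate 3 and WT replicate 2, against 2.34%, 2.91% and 3.34%. The quasi-likelihood test of edgeR called 0 of 42, with 14 lower at an unadjusted p under 0.05, against 10.7% of all genes. Transcript length moved with the difference between groups: over all genes, which are not independent replicates, Spearman's rho between the log2 fold change and the length of the longest transcript was 0.454. The median length of the 42 genes was 3010 bases, against 3188 over all genes. After a correction for length and GC content, 38 of 42 genes were negative, their median was -0.30 and 10 were lower at an unadjusted p under 0.05, against 6.67% of all genes. DESeq2 with this correction called 2 of the 41 members that had an adjusted p, *Tk1* at 0.0111 and *Gins2* at 0.0222. It called 1.19% lower of the 14152 genes that had one. *Mcm5* at 0.0926 and *E2f1* at 0.0586 were no longer called.

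WT replicate 1 stood apart in these genes. It was the highest of the 6 libraries for 40 of 42 genes, against 23.1% of all genes; the exceptions, *Orc1* and *Rfc3*, were highest in WT replicate 3. The 3 WT hearts stood in the order replicate 1, replicate 3, replicate 2 for 35 of 42 genes, or 83.3%, against 17.7% of all genes tested. The median log2 difference between WT replicates 1 and 2 was 0.70, and that between WT replicates 3 and 2 was 0.30. The KOb/c mean differed from WT replicate 2 by a median of -0.04. For 18 of 42 genes WT replicate 2 lay within the range of the 3 KOb/c values, and for 18 it lay below their mean. Among the KOb/c libraries, replicate 1 was lowest for 27 of 42 genes, or 64.3%, against 36.1% of all genes. Summed over the 42 genes, normalized counts were 12552, 13110 and 13830 in KOb/c and 19570, 13282 and 15613 in WT. In the deposited column labels, the number of WT replicate 1 is far from those of the other libraries, which lie close together. The sources used here do not say what these numbers stand for. A difference in when or how this heart was handled cannot be told apart from a difference between mice.

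The size of the difference changed with the heart left out, most with WT replicates 1 and 2. Without WT replicate 1 the median log2 fold change of the 42 genes was -0.16, 35 of 42 were negative, and 3 were lower at an unadjusted p under 0.05, against 6.47% of all genes. Without WT replicate 2 the median was -0.49, 42 of 42 were negative, and 28 were lower at an unadjusted p under 0.05, against 9.92% of all genes. DESeq2 then called 15 of the 40 members to which it gave an adjusted p, and 4.25% lower of the 13166 genes of the table that had one. Without the library labelled KOb/c replicate 2 the median was -0.35 and 7 were lower at an unadjusted p under 0.05, against 8.93% of all genes. That count was 5 without KOb/c replicate 1, 7 without KOb/c replicate 3 and 7 without WT replicate 3, against 7.76%, 9.99% and 9.52% of all genes.

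**Figure D2:**
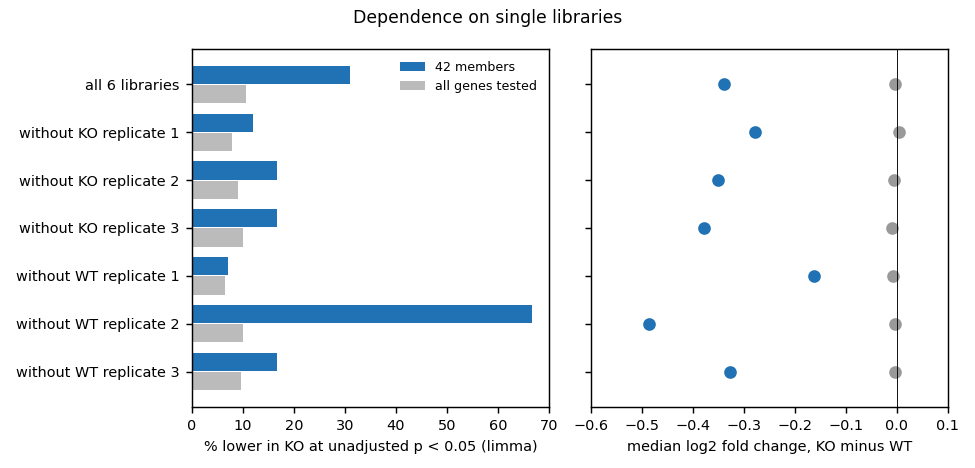
Left, the percentage of genes lower in KOb/c at an unadjusted p under 0.05 by limma, for the 42 replication genes (blue bars) and all genes tested (grey bars), with all 6 libraries and with each library left out in turn. Right, the median log2 fold change of the same genes. The blue bar is close to the grey one without WT replicate 1, where 3 of 42 genes are counted, and longest without WT replicate 2, where 28 are.

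In origin licensing, 9 of 10 genes were lower in KOb/c on average and 4 of them had an unadjusted p under 0.05, against 10.5% of all genes, with a median log2 fold change of -0.34. *Mcm5*, a subunit of the helicase ring on chromosome 8 from 75109569 to 75128439 of GRCm38, was counted at 238, 302 and 297 in KOb/c and 677, 311 and 372 in WT. All 3 KOb/c hearts were below all 3 WT hearts, by a narrow margin at WT replicate 2. Its log2 fold change was -0.62 ± 0.26 (standard error, SE), with an adjusted p of 0.191 from limma and 0.037 from DESeq2, which became 0.0926 with the length and GC correction, and it was -0.29 without WT replicate 1. *Mcm7*, the highest of the ring genes per length at 267 normalized counts per kb, was at 581, 819 and 694 in KOb/c and 956, 752 and 938 in WT, where the groups overlapped. Exons of *Mcm7* overlap *Cops6* and *Ap4m1* on the opposite strand, and the strand setting of the counting is not given in the sources used here, so reads near these ends are uncertain. The same holds for other genes of the 42, of which 15 have exons that overlap another gene in the GENCODE M21 annotation.

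*Mcm6* was at 503, 562 and 621 in KOb/c and 893, 548 and 719.7 in WT. *Mcm2* was at 515, 533 and 466 and 878, 475 and 598 in the same order. In both genes WT replicate 2 lay within the KOb/c range, and WT replicates 1 and 3 lay above it. *Orc6*, the smallest subunit of the origin recognition complex, had 231, 194 and 285 in KOb/c and 351, 273 and 326 in WT, with a log2 fold change of -0.43 ± 0.16 (SE) at an adjusted p of 0.161 by limma. *Mcm4*, which lies beside *Prkdc* on the opposite strand, did not follow the others: it was at 412, 446 and 469 in KOb/c and 496, 382 and 446 in WT, means of 442 ± 28.8 and 441 ± 56.8 (SD, n = 3). Its log2 fold change of 0.01 was negative when the libraries were rescaled to the same total, without KOb/c replicate 3 and without WT replicate 2. The remaining licensing genes, *Mcm3*, *Cdt1*, *Cdc6* and *Orc1*, had log2 fold changes of -0.31, -0.49, -0.61 and -0.22. The loading factors *Cdc6* and *Cdt1* were 3.55 and 1.73 times as high in WT replicate 1 as in WT replicate 2, and *Orc1* had as few as 9 reads in a library.

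All 4 genes of helicase activation were lower in KOb/c on average, with a median log2 fold change of -0.64. *Gins2*, a subunit of the GINS complex on chromosome 8 from 120578633 to 120589304, had the largest difference of the 42 genes: 40.7, 53.8 and 56.8 in KOb/c and 134, 78 and 105 in WT. The groups did not overlap, and the means were 50.4 ± 8.54 and 106 ± 28.1 (SD, n = 3). Its log2 fold change was -1.03 ± 0.24 (SE) at an adjusted p of 0.0823 by limma, and leaving out WT replicate 1 or 2 gave -0.85 or -1.24. Exons of *Gins2* overlap *Gse1* on the opposite strand, and *Gse1* was counted at 823, 692 and 676 in KOb/c and 538, 604 and 502 in WT, higher in KOb/c where *Gins2* was lower. *Gins1* was at 91.3, 97.2 and 92.2 in KOb/c and 131, 105 and 109 in WT, also without overlap. *Mcm10*, which helps to activate the helicase, was at 19.8, 28.9 and 25.7 and 89.1, 28.1 and 44.3, where WT replicate 2 lay within the KOb/c range. *Cdc45* was at 139, 168 and 180.0 in KOb/c and 293, 179.8 and 164 in WT, and only WT replicate 1 stood above the KOb/c range.

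**Figure D3:**
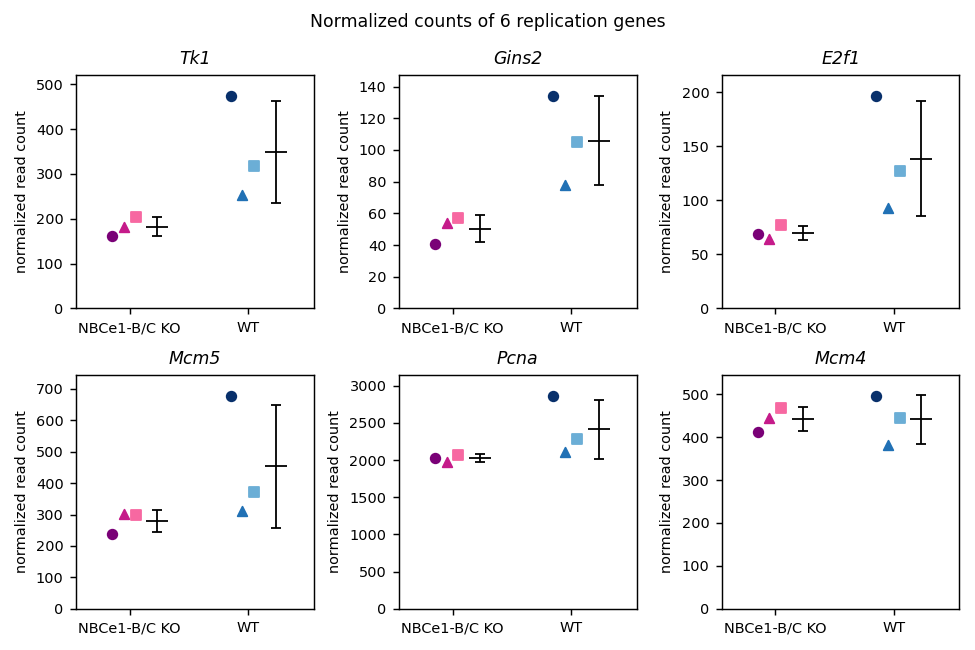
Normalized read counts of 6 genes in the 3 KOb/c hearts (purple to pink) and the 3 WT hearts (blue), with circles, triangles and squares for replicates 1, 2 and 3 and bars for the mean ± SD. *Tk1*, *Gins2*, *E2f1*, *Mcm5* and *Pcna* have no overlap between groups and their highest value in WT replicate 1, while *Mcm4* overlaps. The 6 are examples: all 3 KOb/c values lay below all 3 WT values in 13 of the 42 genes, against 14.6% of all genes.

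Of the 7 polymerase and primase genes, 6 had a negative log2 fold change, and the median was -0.06. Of the 6, 2 had an unadjusted p under 0.05 by limma, *Prim1* and *Pole2*, where 10.5% of all genes were lower. *Pold1*, the catalytic subunit of polymerase delta, was at 741, 782 and 832 in KOb/c and 883, 754 and 771 in WT. *Pola1*, that of polymerase alpha, was at 354, 305 and 362 and 395, 265 and 394. *Pole*, that of polymerase epsilon, was at 132, 119 and 135 and 172, 84.2 and 104, higher in each KOb/c heart than in WT replicates 2 and 3 and lower than in WT replicate 1. The 3 log2 fold changes were -0.03, -0.03 and 0.16, with standard errors of 0.09, 0.17 and 0.25, and each changed sign under some of the alternatives tried.

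*Prim1*, the catalytic subunit of primase, was at 64.5, 95.1 and 129.5 in KOb/c and 171, 137 and 156 in WT, without overlap, with a log2 fold change of -0.73 ± 0.24 (SE) at an adjusted p of 0.127 by limma. It was -0.65 without WT replicate 1. *Pole2*, the small subunit of polymerase epsilon, was at 35.7, 39.3 and 36.4 in KOb/c and 74.8, 42.6 and 71.1 in WT, again without overlap (log2 fold change -0.70, -0.56 without WT replicate 1). *Pola2* was at 529, 488 and 558 and 749, 531 and 642, and *Prim2*, the other primase subunit, had a log2 fold change of -0.06.

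The clamp, clamp loader and lagging-strand genes had small differences, all 7 of them negative, with a median of -0.24. *Pcna*, the sliding clamp on chromosome 2 from 132249162 to 132253314, was the highest of the 42 genes per length, at 1463 normalized counts per kb of its longest transcript, where the others ranged from 5.13 for *Orc1* to 443 for *Dut*. It was counted at 2032, 1970.3 and 2074 in KOb/c and 2861, 2108 and 2278 in WT. The groups did not overlap, but WT replicate 2 stood close to the KOb/c hearts, and the log2 fold change of -0.24 ± 0.11 (SE) at an adjusted p of 0.214 by limma was -0.11 after the length and GC correction. Reads of *Pcna* may be shared with processed pseudogenes, of which *Pcna-ps2* was counted at 15.9 or fewer in each library. *Rpa2*, a subunit of the single-strand binding protein, was at 724, 778 and 783 in KOb/c and 905, 794 and 831 in WT, a log2 fold change of -0.14.

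*Rfc4* and *Rfc5* encode subunits of the clamp loader. *Rfc4* was at 256, 244 and 238 in KOb/c and 332, 288 and 280.5 in WT, without overlap (log2 fold change -0.28 ± 0.11 SE, adjusted p of 0.174 by limma). Its exons overlap those of *Eif4a2* on the opposite strand, which was counted at 13979, 15006 and 14982 in KOb/c and 14586, 15615 and 16264 in WT. *Rfc5* was at 209, 207 and 286 and 316, 253 and 303, where KOb/c replicate 3 lay among the WT hearts. *Lig1*, the ligase that joins Okazaki fragments, was at 226, 279 and 270.5 in KOb/c and 495, 250.5 and 335 in WT, with WT replicate 2 within the KOb/c range. *Rfc3* and *Fen1*, the flap endonuclease, had log2 fold changes of -0.08 and -0.14.

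Of the 5 genes of deoxynucleotide supply, *Tk1* held the clearest difference. *Tk1*, the S-phase thymidine kinase of the salvage pathway on chromosome 11 from 117815526 to 117826092, was at 161, 182 and 203 in KOb/c and 474, 253 and 319 in WT. The groups did not overlap, and the means were 182 ± 21.2 and 348 ± 114 (SD, n = 3), a log2 fold change of -0.89 ± 0.22 (SE) at an adjusted p of 0.0844 by limma and 0.00189 by DESeq2. Leaving out WT replicate 1 or 2 gave -0.65 or -1.10. *Afmid*, which starts 168 bases away on the opposite strand and overlaps *Tk1* exons, was at 221, 205 and 216 in KOb/c and 210.0, 178 and 219 in WT, in an order unlike that of *Tk1*.

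*Rrm1* and *Rrm2* encode the subunits of ribonucleotide reductase, which makes deoxynucleotides. *Rrm1* was at 1023, 908 and 1016 in KOb/c and 1256, 865 and 1062 in WT, and *Rrm2*, the S-phase subunit, at 202, 214 and 208 and 381, 188 and 269. In both, WT replicate 2 was the lowest of the 6 libraries and WT replicate 1 the highest. *Dut*, which keeps uracil out of DNA, was at 758, 782 and 826 in KOb/c and 1023, 936 and 861 in WT, a small difference without overlap (log2 fold change -0.25 ± 0.09 SE, adjusted p of 0.136 by limma). *Tyms*, the thymidylate synthase of the de novo route, had a log2 fold change of -0.42 ± 0.34 (SE), and WT replicate 1 was 2.47 times WT replicate 2.

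The 4 genes of chromatin assembly and histone supply differed most between the WT hearts themselves, with a median log2 difference of 1.30 between WT replicates 1 and 2. *Chaf1b*, a subunit of the histone chaperone CAF-1, was at 32.8, 38.2 and 52.3 in KOb/c and 123, 32.2 and 77.3 in WT. *Uhrf1*, which guides methylation of newly copied DNA, was at 121, 117 and 140.1 and 322, 94.6 and 178. WT replicate 2 was the lowest of the 6 libraries in both, so that their log2 fold changes of -0.73 and -0.48 became -0.30 and -0.05 when WT replicate 1 was left out, and -1.25 and -0.93 when WT replicate 2 was. *Chaf1a*, the large CAF-1 subunit, was at 159, 175 and 168 in KOb/c and 305, 170.5 and 194 in WT. *Slbp*, which binds the stem-loop of histone mRNAs, was at 600.4, 598 and 615 and 833, 615 and 666, without overlap but within a few counts at WT replicate 2.

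Among the genes of S-phase entry and checkpoint, *E2f1*, a transcription factor of the G1/S program on chromosome 2 from 154559407 to 154569892, was at 68.5, 64.1 and 77.2 in KOb/c and 197, 92.5 and 127 in WT. The groups did not overlap. Its log2 fold change was -0.91 ± 0.26 (SE), with an adjusted p of 0.0997 from limma and 0.0135 from DESeq2, which became 0.0586 with the length and GC correction, and it was -0.63 without WT replicate 1. *E2f2* was at 62.5, 63.1 and 98.4 in KOb/c and 152, 103 and 66 in WT and was 1 of the few genes in which WT replicate 3 was near the lowest KOb/c values. *Ccne2*, an S-phase cyclin, was at 147, 136 and 168 and 265, 156 and 179, and *Clspn*, the checkpoint adaptor claspin, at 34.7, 49.6 and 46.1 and 109.6, 44.7 and 81.5. In both, WT replicate 2 lay within the KOb/c range. The other E-type cyclin gene, *Ccne1*, had a log2 fold change of -0.01 ± 0.33 (SE).

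**Figure D4:**
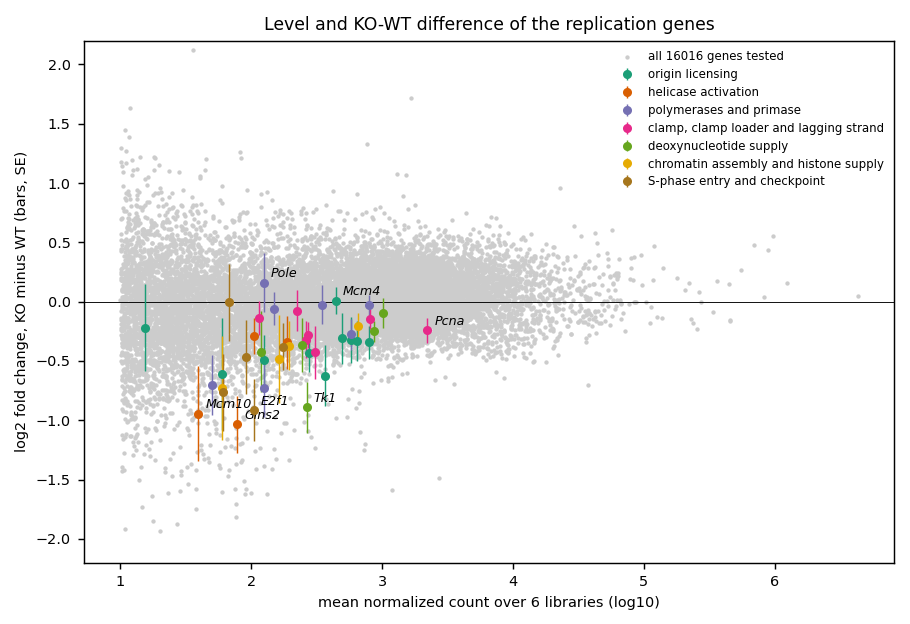
The log2 fold change of each gene (KOb/c minus WT, on log2(normalized count + 1)) against the log10 of its mean normalized count over 6 libraries, with the 42 replication genes in colour by role, bars for the standard error, and all 16016 genes tested in grey. The 42 genes lie mostly below 0, from -1.03 for *Gins2* to 0.16 for *Pole*.

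Genes with lower counts had larger differences. Over the 42 genes Spearman's rho between mean count and log2 fold change was 0.447, a description of points that share the same 6 libraries. The 21 genes under the median level of 209 normalized counts had a median log2 fold change of -0.46, and the other 21 had -0.28. Counting error is larger for the former, and its part in this was not tested. Of the 42 genes, 7 start within 1000 bases of a tested coding gene on the opposite strand that is not one of them: *Orc1*, *Orc6*, *Mcm4*, *Gins1*, *Pole*, *Fen1* and *Tk1*. WT replicate 1 was highest in 2 of the 7 partners, whose median log2 fold change was 0.003, and that of the 7 genes themselves was -0.22.

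The list of 44 other replication genes mixes further subunits of these complexes and repair enzymes with cell cycle genes such as *Ccna2*. Of the 44, 37 had a negative log2 fold change, 11 were lower and 1 higher at an unadjusted p under 0.05, and the median was -0.19. Of all genes, 50.8% were negative, 10.5% lower and 13.0% higher by the same test. WT replicate 1 was highest in 26 of 44. *Ccna2* and *Ticrr* had the largest differences of the list, -1.333 and -1.205, both beyond that of *Gins2*. *Ccna2* was at 71.5, 106.5 and 119.7 in KOb/c and 520, 136 and 209 in WT, and *Ticrr* had as few as 8 reads in a library. *Rnaseh2b*, a subunit of the enzyme that removes ribonucleotides from DNA, was at 341, 341 and 393 in KOb/c and 514, 469.9 and 489 in WT. *Rpa3*, the smallest subunit of the single-strand binding protein, was at 358, 326 and 387 and 550.1, 441 and 522. DESeq2 called 2 of the 33 genes of this list with an adjusted p, against 5.03% lower of all genes that had one. These were *Rnaseh2b* and *Rpa3*, both lower in KOb/c. Their adjusted p of 0.00973 and 0.00885 became 0.00906 and 0.258 with the length and GC correction. Without WT replicate 1 the log2 fold changes were -0.42 and -0.43, and the adjusted p from DESeq2 without its filter was 0.118 and 0.142. *Dna2*, a nuclease of lagging-strand synthesis, was at 49.6, 42.4 and 62.1 in KOb/c and 123, 86.3 and 67 in WT. The genes with the largest counts in this list went the other way on average, *Rpa1* with 0.12, *Rfc1* with 0.16 and *Rrm2b*, an inducible reductase subunit, with 0.18.

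The list of E2F, RB and G1 genes had no common direction. Of its 27 genes, 15 were negative and 12 positive, with a median of -0.13, and 5 were lower and 5 higher at an unadjusted p under 0.05, against 10.5% and 13.0% of all genes. The log2 fold change was lowest for *Mybl2*, *Foxm1* and *E2f8*, at -1.021, -0.971 and -0.875, and highest for *Tfdp2*, at 0.425. In the first 3, WT replicate 1 was the highest library, at 5.37, 4.23 and 1.97 times WT replicate 2. DESeq2 called 2 lower and 2 higher of the 24 to which it gave an adjusted p, against 5.03% and 8.22%. *Cdk4*, the kinase of the D-type cyclins, was at 1902, 2021 and 2068 in KOb/c and 2692, 2244 and 2385 in WT, and *E2f4*, a repressor of the E2F family, at 1072, 1232 and 1182 and 1601, 1462 and 1313. *Cdkn1b*, an inhibitor of Cdk complexes, was at 3009, 2816 and 2899 in KOb/c and 2425, 2496 and 2487 in WT. In these 3 genes the groups did not overlap, and their adjusted p from DESeq2 was 0.0286, 0.0281 and 0.024. All 3 calls were lost with the length and GC correction, at 0.314, 0.274 and 0.212 by DESeq2, and without WT replicate 1, at 0.145, 0.161 and 0.0828. The remaining call, *Tfdp2*, was at 4707, 2716 and 3092 in KOb/c and 2612, 2540.5 and 2459 in WT, highest in KOb/c replicate 1. Its adjusted p from DESeq2 of 0.0352 became 0.416 with the correction and 0.356 without WT replicate 1. Without KOb/c replicate 1 it was 0.16, and the log2 fold change from DESeq2 was 0.193. *Ccnd2*, a D-type cyclin, was at 6747, 5494 and 4808 and 4987, 4444 and 4386, and *Ccnd1* at 2934, 2663 and 2600.3 and 4823, 2763 and 3157, highest in WT replicate 1. *E2f6* had a log2 fold change of 0.06.

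Mitosis genes had the same order of hearts and a wider spread. All 21 stood in the order WT replicate 1, 3, 2 among the WT hearts, 20 of 21 were negative, 16 were lower at an unadjusted p under 0.05, and the median log2 fold change was -1.02, or -0.53 without WT replicate 1. Of all genes, 17.7% had that order, 50.8% were negative and 10.5% were lower by the same test. DESeq2 called 7 lower of the 14 mitosis genes to which it gave an adjusted p, against 5.03% of all genes that had one. The dependence of these calls on single libraries is not given here. *Mki67*, the proliferation marker, was at 276, 412 and 335 in KOb/c and 1238, 399 and 589 in WT. *Top2a*, the mitotic topoisomerase, was at 229, 249 and 269 and 935, 253 and 394. They were 3.1 and 3.7 times as high in WT replicate 1 as in WT replicate 2, which lay within the KOb/c range in both. *Birc5*, the survivin gene, was at 15.9, 46.5 and 39 in KOb/c and 183, 71.7 and 103 in WT, *Ccnb1*, cyclin B1, at 28.8, 43.4 and 50.6 and 238, 58.2 and 127, and *Ccnb2* at 49.6, 72.4 and 63.9 and 337, 89.4 and 140.2. *Cenpf*, the exception in direction, was at 1479, 764 and 1134 and 1409.6, 698 and 996.

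**Figure D5:**
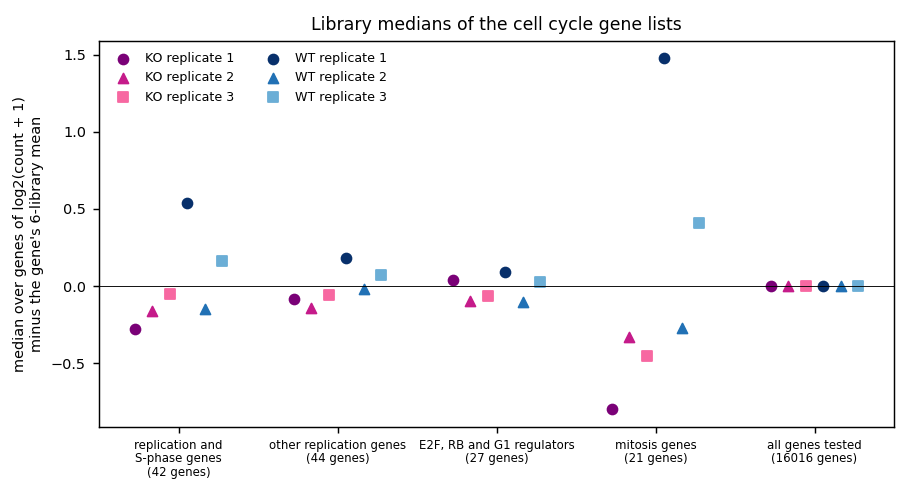
The median over the genes of each list of log2(normalized count + 1) minus the gene's 6-library mean, for each library, with KOb/c in purple to pink and WT in blue. WT replicate 1 is at 0.54 for the 42 replication genes and at 1.48 for mitosis genes, where WT replicate 2 is at -0.15 and -0.27, and all genes tested are at 0.

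Of 8 cardiomyocyte, 7 endothelial, 8 fibroblast and 7 macrophage markers, 2, 2, 2 and 3 stood in that order of WT hearts. Summed normalized counts of 8 cardiomyocyte markers were 2773200 to 3096700 in KOb/c and 2483800 to 2584700 in WT. The median log2 fold change of the 8 was -0.003 and 4 of them were negative, and *Myh6*, the alpha myosin heavy chain, with means of 1159000 in KOb/c and 792400 in WT, differed by more than the whole sum did. Endothelial markers summed to 44971 to 48362 in KOb/c and 43677 to 44786 in WT, fibroblast markers to 85526 to 101750 and 87470 to 93147, and macrophage markers to 8609.5 to 9223.1 and 9020.8 to 9752.6. The smooth muscle list summed to 50859 to 55561 in KOb/c and 43766 to 55243 in WT, and the epicardial list to 910.1 to 1677.8 and 947.6 to 2373.7. WT replicate 2 had the highest sum of T cell markers, 259.9 over the 6 of 12 markers found in the table, against 121.1 to 180.9 in the other libraries. It also had the highest sum of B cell markers, 677.8 against 227.4 to 412.4. Erythroid, neutrophil and adipose markers were highest in KOb/c replicate 3 and WT replicate 2, and adipose markers summed to 82.4 in KOb/c replicate 1 against 1244.7 to 5028.5 elsewhere. Defining thymocyte genes such as *Rag1* and *Dntt* were listed but not found by symbol in the table, where the lowest gene mean was 9.89. The part of these cell types in the result was not tested.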

How the data were processed

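RNA of 6 female mouse hearts, 3 KOb/c and 3 WT, was sequenced in paired reads. Per the submitters' processing notes, the authors used Trimmomatic 0.36, STAR 2.5.2b, featureCounts of Subread 1.5.2, DESeq2 and the GRCm38 build, without stated roles. The authors deposited 1 table of normalized counts, a signal in which each library's read counts are divided by a size factor. Whole reads were recovered by finding each library's divisor (100% of values whole within 0.01). In 2 of the 6 libraries the lowest values alone did not settle the divisor, which rests on a fit over all genes. Groups came from the labels. The 42 genes, their roles and the other lists were chosen with earlier results of these data known.

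Genes with a mean of at least 10 (16016 of 16018, with all 42) were fitted in limma 3.58.1 with a variance trend on log2(normalized count + 1), with Benjamini-Hochberg adjustment over all of them. The pseudocount understates the change of low genes. DESeq2 1.42.0, with default settings, and edgeR 4.0.16 on the recovered reads were alternatives. They called 1587 and 0 genes at an adjusted p under 0.05. The other alternatives were pseudocounts of 0.5 and 5, other filters and scalings, no variance trend, a replicate block, a length and GC correction, and leaving out each library. The limma, edgeR and DESeq2 fits of all 6 libraries and the length and GC correction were first tested on simulated data. In each role group, values in each library are given for the 3 genes with the largest mean, the 3 with the lowest limma p, and those higher in KOb/c. Of the other replication, E2F and mitosis lists, the 3 with the largest mean and the 3 with the lowest p are named. *Rpa1*, *Rfc1*, *Rrm2b* and *E2f6* are given only a log2 fold change, the others values in each library. *Ccna2*, *Ticrr*, *Mybl2*, *Foxm1*, *E2f8* and *Tfdp2* were added for the size of their differences. Positions and lengths are from GENCODE M21 (GRCm38), promoters from RefSeq (GRCm38.p6).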

Additional observations from a re-analysis of the deposited data

How the results depend on the processing

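The number of genes past an adjusted p of 0.05 by limma was 0 under every limma and edgeR alternative, each library left out included, and 3 with DESeq2 on the recovered reads. The median log2 fold change of -0.34 stayed negative in all of them, from -0.49 to -0.16 with single libraries left out. The 13 genes lower at an unadjusted p under 0.05 became 3 (without WT replicate 1) to 28 (without WT replicate 2), against 6.47% and 9.92% of all genes. The 13 genes without overlap became 13 to 34 with single libraries left out, and 9 once length and GC were corrected for. The share of all genes without overlap was not computed in these settings. Groups of 2 and 3 separate more easily than groups of 3 and 3, so the rise to 34 cannot be read as a result about these genes. The 3 DESeq2 calls became 0 to 15 with single libraries left out, 2 with the length and GC correction, 0 without KOb/c replicate 2 and WT replicate 1, and 0 with the replicate block. The last 3 counts were of 41, 3 and 12 genes with an adjusted p, and leaving out WT replicate 1 or KOb/c replicate 1 left 9 and 10. Over all genes and in either direction, DESeq2 called 309 without that pair of libraries and 1113 with the replicate block, or 837 with the block and no filter. Without the filter on low counts, so that all 42 had one, the calls were 0 to 14 with single libraries left out and 1, *Tk1*, with the replicate block. The correction in DESeq2, the pair left out and the settings without the filter other than that of all 6 libraries were chosen after seeing the data. Whether equal replicate numbers mark paired mice is not given in the sources used here. In the column labels, the numbers of the KOb/c and WT libraries lie close for replicates 2 and 3 and far apart for replicate 1. The correlations of same-numbered deviations were 0.227, 0.072 and -0.029, and the others ranged from -0.183 to 0.155. Deviations within a group of 3 are tied to one another, so these correlations cannot decide it. With the replicate block, 12 genes were lower at an unadjusted p under 0.05 in limma, against 10.9% of all genes. Signs changed in 12 of 559 values of the 33 named genes, in 5 genes. *Mcm4* was -0.064 when rescaled to the same total and -0.09 to 0.097 with libraries left out. *Pold1* was 0.003 and *Pole* -0.03 after the length and GC correction, and with libraries left out they were -0.074 to 0.04 and -0.061 to 0.451. *Pola1* was -0.217 to 0.071 and *Rrm1* -0.235 to 0.033 with libraries left out. Rescaling to the same total moved the median of all genes to -0.08 and that of the 42 to -0.41. The causes were not tested. No value of non-overlap was computed for alternatives that do not change the values. Counts under 10 reads in *Orc1* limit what its ratio can show.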
